A study of Mus musculus with 6 samples.

Results

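The enzymes that make and break down retinoic acid were followed in mouse embryos of embryonic day 11.5, in the otic vesicle, from which the inner ear forms. The genes are Rdh10, Dhrs3, Aldh1a1, Aldh1a2, Aldh1a3, Cyp26a1, Cyp26b1 and Cyp26c1, and every probe set that the platform annotation gives to one of these symbols alone was taken. That gave 10 of the 45101 probe sets of the array, for 7 of the 8 genes. Cyp26c1 was not analysed here. In Mest-KO embryos Tbx1, a gene for a T-box transcription factor, was knocked out conditionally with T-Cre, a recombinase under the control of the mesodermal gene T, so the knockout was aimed at the mesoderm and not at the vesicle epithelium. The controls were T-Cre conditional Tbx1 heterozygotes, so both groups carried the recombinase and neither was wild type. There were 3 arrays per group, each with the RNA of both ears of 3 embryos that shared a genotype, pooled after dispase had been used to take off surrounding tissue. Each array is called a pool below and is numbered as in the labels.

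Retinoic acid is made from retinol in 2 oxidations. Rdh10 encodes the dehydrogenase that turns retinol into retinal, and Dhrs3 encodes a reductase that turns retinal back into retinol. The Aldh1a genes encode the retinaldehyde dehydrogenases that turn retinal into retinoic acid, and the Cyp26 genes encode cytochrome P450 enzymes that oxidise retinoic acid and so clear it. Cells with synthesis next to cells with clearance give a graded signal, and in the ear both an excess and a lack of retinoic acid disturb the pattern of the vesicle. Tbx1 in mesoderm has been linked to Cyp26 expression in the tissue around the ear, and the arrays ask how the vesicle itself differs when mesodermal Tbx1 is lost.

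The arrays were made comparable by quantile normalization, and probe sets with a mean above an intensity of 34.4, the 40th percentile of all probe sets, were tested. Differences are in log2 units, Mest-KO minus control, each with its standard error from a limma fit over all 27022 such probe sets, and n = 3 pools per group throughout. The vesicle label was checked on 15 epithelial and otic markers, of which 14 were measured and lay above that filter, with Oc90, an otoconial protein gene of the otic epithelium, between 10890 and 11860 on the normalized scale on all arrays. Hbb-y, a red blood cell marker, lay between 12730 and 15550, so the pools also held RNA of other cells. The array Mest-KO 3 stood apart, at 64.6 on the first principal component against -19.98 to -6.65 for the other 5, with a median deposited intensity of 91.0 against 62.1 to 71.0. The pools also differed in sex, since Xist, a transcript of the inactive X chromosome, was at 16.1 in Mest-KO 1 and Eif2s3y, a Y-linked gene, was at 12.1 in control 2. For the enzyme genes, values without Mest-KO 3 or without both of those pools are given where they move the difference by over 1.5 times. Tbx1, read by 1 probe set, differed by -0.03 (SE 0.146). No source used here says whether that probe set lies in the deleted part, and the deletion was aimed at mesoderm, so it does not check the labels.

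All 7 measured enzyme genes gave signal above the filter on all 6 arrays, and none of their probe sets passed the test for a difference between Mest-KO and control. In limma's fit with Benjamini-Hochberg adjustment over all probe sets tested, 0 of the 10 passed an adjusted p of 0.05, as did 0 of the 27022 tested (0%). At an unadjusted p under 0.05 there were also 0 of 10, against 3.98% of all probe sets, and the smallest unadjusted p was 0.129, for Aldh1a1. The groups overlapped in all 10, while they did not overlap in 9.37% of all probe sets. The plain two-sample statistic, adjusted the same way, called 0 of the 10. Of the 10 differences 4 were above 0 and 6 below, between -0.27 and 0.17, with a median of -0.03 against -0.0072 over all probe sets tested. In this quantile normalized fit every 95% confidence interval lay within a 2-fold change in either direction, and 6 lay within a 1.5-fold change. These bounds hold for that normalization only. With median centring, Rdh10 set 1 differed by -0.087 at a limma unadjusted p of 0.722, against 0.08 and 0.488 here, so its interval was wider there. Intervals under the alternatives are not given.

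**Figure D1:**
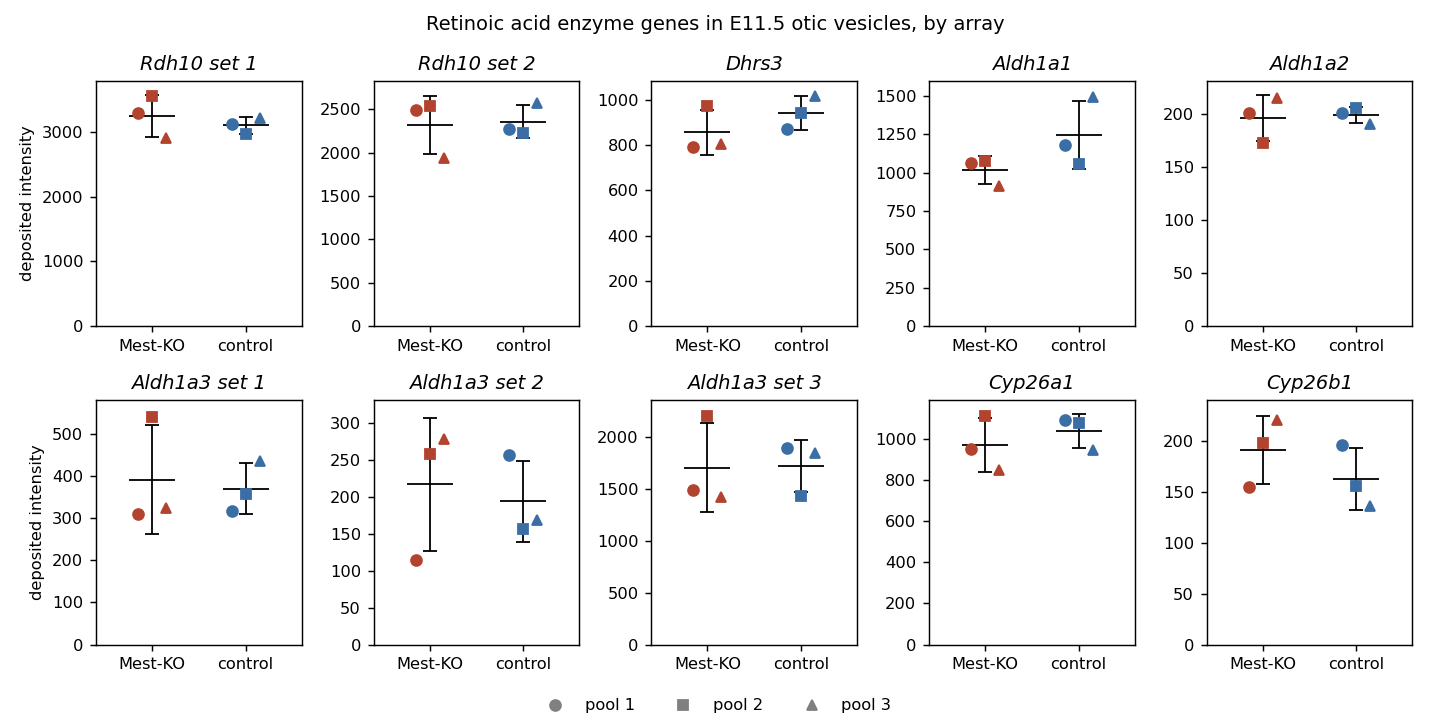
Deposited intensity (linear scale, arbitrary units, from 0) of each of the 10 probe sets by array, with Mest-KO pools in red and control pools in blue. Symbols mark the pool numbers, which the labels do not say pair the groups, and the horizontal bar and whiskers give the mean and SD of 3 pools. The groups overlap in every panel, and the Aldh1a3 probe sets have the widest spread.

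Rdh10, on chromosome 1 (GRCm38.p6, chr1:16105882-16132550), was read by 2 probe sets. Set 1, 1426968_a_at, had deposited intensities of 3299, 3559 and 2915 in Mest-KO pools 1, 2 and 3, against 3128, 2973 and 3229 in the controls. The highest and the lowest pool were both Mest-KO, with the controls between them. The mean was 3257 ± 324 in Mest-KO and 3110 ± 129 in control (SD, n = 3 each), and the normalized log2 difference was 0.08 (SE 0.106, 95% confidence interval -0.18 to 0.34, limma adjusted p = 0.97). Leaving out Mest-KO 2 brought this to 0.02, leaving out Mest-KO 3 to 0.14, and leaving out control 2 or the pools of one sex to 0.03. Set 2, 1460632_at, had 2490, 2535 and 1935 in Mest-KO against 2274, 2222 and 2570 in control, a difference of -0.02 (SE 0.135). Here too one Mest-KO pool lay lowest, and without that pool, Mest-KO 3, the sign turned and the difference was 0.10. It was also above 0 without control 3, at 0.04, and ran down to -0.08 without Mest-KO 2 and -0.11 without the pools of one sex. In the quantile normalized fit the intervals of both sets reached no further than 1.27-fold lower and 1.26-fold higher.

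Dhrs3 works against Rdh10 and is itself a known target of retinoic acid. It lies at chr4:144892534-144928209. Its single probe set stood at 791, 973 and 806 in Mest-KO pools, against 871, 941 and 1019 in control pools. Mest-KO 1 and 3 were below all the controls and Mest-KO 2 was among them. The means were 857 ± 101 in Mest-KO and 943 ± 74.3 in control (SD, n = 3 each), and the log2 difference was -0.15 (SE 0.131, limma adjusted p = 0.97). With single pools left out it ran from -0.25, without Mest-KO 2, to -0.08, without control 3, and it was -0.09 without Mest-KO 1 and -0.08 without the pools of one sex.

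Among the dehydrogenases that make retinoic acid, Aldh1a1 had the lowest value in Mest-KO relative to control. Its probe set gave 1064, 1078 and 914 in Mest-KO, against 1180, 1059 and 1492 in control. Control 3 stood high, and control 2 was level with the Mest-KO pools. Means were 1019 ± 91.0 in Mest-KO and 1244 ± 224 in control (SD, n = 3 each). The log2 difference of -0.27 (SE 0.155, limma adjusted p = 0.97) had an interval from -0.65, or 1.57-fold lower, to 0.11. Without control 3 it was -0.13, and without the pools of one sex, Mest-KO 1 and control 2, it was -0.40.

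Aldh1a1 has a close copy, Aldh1a7, 49489 bases away on chromosome 19 (Aldh1a1 at chr19:20492583-20643463, Aldh1a7 at chr19:20692953-20727556). The 100 bases before the RefSeq starts are shown to make the copy visible, with the bases that differ in capitals. They were taken from the GRCm38.p6 table, from chr19:20601868-20601967 on the plus strand for Aldh1a1, which has a second and more distal start, and from chr19:20727557-20727656 on the minus strand for Aldh1a7.
Aldh1a1: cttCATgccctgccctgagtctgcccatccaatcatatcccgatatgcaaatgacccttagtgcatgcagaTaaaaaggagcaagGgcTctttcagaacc
Aldh1a7: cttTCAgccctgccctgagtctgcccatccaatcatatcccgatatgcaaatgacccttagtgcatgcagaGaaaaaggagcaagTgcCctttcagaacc
Without gaps, 94 of the 100 bases are equal and 6 differ. The arrays named the copies separately. Aldh1a7 had 559, 524 and 507 in Mest-KO, against 668, 638 and 571 in control, and the groups did not overlap, which holds for 9.37% of all probe sets. Its log2 difference was -0.26 (SE 0.0982), with an unadjusted p of 0.0393 in the limma fit and an adjusted p of 0.97. Probe sequences were not used here, and how much of each signal comes from the other copy was not tested.

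Aldh1a2, the chief source of retinoic acid in the mesoderm of the early embryo, was among the steadiest of the genes across pools. It lies at chr9:71215789-71296243 and its probe set gave 201, 172 and 215 in Mest-KO, against 201, 205 and 191 in control. The Mest-KO pools spread to both sides of the controls. Means were 196 ± 21.8 in Mest-KO and 199 ± 7.29 in control (SD, n = 3 each), and the difference was -0.08 (SE 0.112, 95% confidence interval -0.36 to 0.19, limma adjusted p = 0.97). That difference rested on Mest-KO 2, without which it was -0.0077. It was -0.02 without control 2 and -0.12 without Mest-KO 3. The residual SD of 0.116 log2 units was below the median of 0.236 over the 2000 probe sets nearest to it in level.

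Aldh1a3, the dehydrogenase gene with 3 probe sets, varied most between pools. It lies at chr7:66390892-66427477. Set 1, 1417642_at, had 311, 540.2 and 324 in Mest-KO, against 318, 359 and 435 in control. Mest-KO 2 was highest, and the other Mest-KO pools were level with control 1. Set 3, 1448789_at, which was made to the same accession, had 1487, 2200 and 1424 in Mest-KO, against 1893, 1434 and 1840 in control. Mest-KO 2 was highest again, and Mest-KO 3 and control 2 were lowest and nearly level. Set 2, 1427395_a_at, read 114, 259 and 278 in Mest-KO, against 257, 157 and 168 in control. There Mest-KO 1 was lowest and Mest-KO 3 highest, so the order of the pools was not that of the other sets. The log2 differences of sets 1, 2 and 3 were 0.01 (SE 0.255), 0.05 (SE 0.361) and -0.04 (SE 0.207), with limma adjusted p of 0.998, 0.992 and 0.992. With single pools left out, set 1 ran from -0.26, without Mest-KO 2, to 0.15, without Mest-KO 1, and was 0.13 without Mest-KO 3, set 2 ran from -0.16, without Mest-KO 3, to 0.43, without Mest-KO 1, and set 3 from -0.23, without Mest-KO 2, to 0.07, without Mest-KO 3, so the sign of each turned. Without the pools of one sex the values of sets 1, 2 and 3 were 0.15, 0.33 and -0.07. All 3 sets had a residual SD above that of the probe sets nearest in level, at 0.366, 0.533 and 0.287 against medians of 0.173, 0.236 and 0.116. They therefore bound a change of Aldh1a3 only loosely, the widest interval, that of set 2, running from -0.83 to 0.93.

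**Figure D2:**
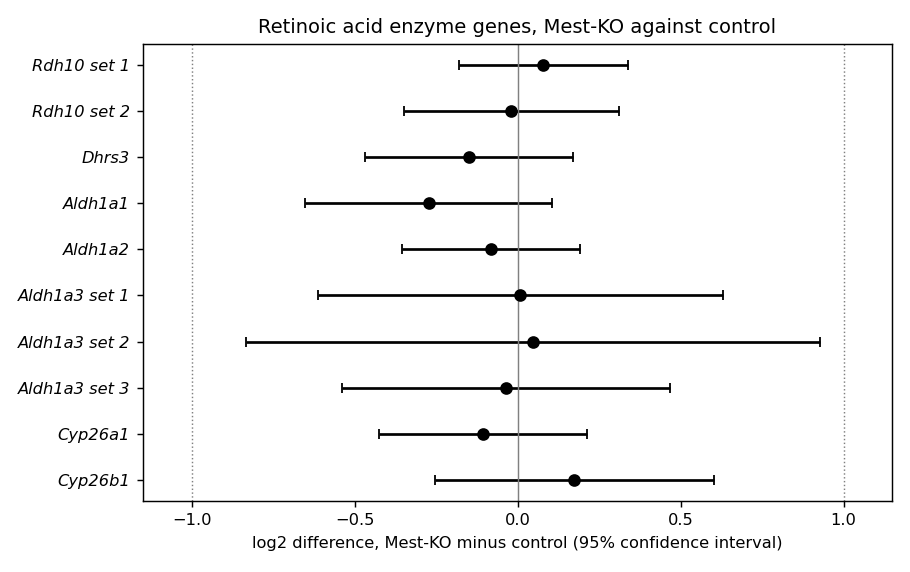
Log2 difference, Mest-KO minus control, of each of the 10 probe sets with its 95% confidence interval from the limma fit (n = 3 pools per group). All intervals include 0 and lie within the dotted lines at a 2-fold change, and the Rdh10 and Aldh1a2 intervals are narrower than those of Aldh1a3.

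Cyp26a1, the clearing enzyme gene that retinoic acid itself induces, did not differ between the groups beyond the spread between pools. It lies at chr19:37697738-37701536, 4417 bases from the end of Cyp26c1 (chr19:37685112-37693320). A match to one form of the direct repeat that retinoic acid receptors bind lies just before one of its RefSeq starts. It is shown because Cyp26a1 is widely read as a gauge of retinoic acid in a tissue, with both repeats in capitals, from chr19:37697770-37697799 on the plus strand of GRCm38.p6.
Cyp26a1: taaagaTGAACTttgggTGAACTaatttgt
The motif searched on both strands was a direct repeat of AGNTCA, where N is any base, with 5 bases between the repeats, and here it reads on the minus strand, from base -32 to base -16 relative to that start. The annotated gene begins further upstream, so the match lies inside its span. The motif as written was found in 0.204% of the 32851 RefSeq promoter windows of 300 bases. Of the 9 windows of the 6 enzyme genes that have one, 1 held it. Repeats with other bases or spacing were not searched, so these are not shares of all repeats that the receptors bind. A match is a string of letters, and binding was not measured. The Cyp26a1 probe set gave 952, 1112 and 850.4 in Mest-KO, against 1092, 1079 and 945 in control. Mest-KO 2 was the highest pool and Mest-KO 3 the lowest, with the controls between. Means were 971 ± 132 in Mest-KO and 1039 ± 81.2 in control (SD, n = 3 each), and the difference was -0.11 (SE 0.131, 95% confidence interval -0.43 to 0.21, limma adjusted p = 0.97). Leaving out Mest-KO 3 brought it to -0.02, leaving out Mest-KO 2 to -0.21, and leaving out the pools of one sex to -0.06.

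Cyp26b1, on chromosome 6 (chr6:84571414-84593908), had the highest value in Mest-KO relative to control of the 10 probe sets. It gave 154, 198 and 220.4 in Mest-KO, against 196, 156 and 136 in control. Mest-KO 2 and 3 were the highest pools, Mest-KO 1 lay below control 1 and control 2, and control 3 was lowest. The means of 191 ± 33.6 in Mest-KO and 163 ± 30.4 in control (SD, n = 3 each) differed by 0.17 in log2 units (SE 0.176, 95% confidence interval -0.25 to 0.60, limma adjusted p = 0.97). Without control 3 the difference was 0.04, without Mest-KO 3 it was 0.10, without Mest-KO 1 it was 0.30, and without the pools of one sex it was 0.31.

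Mesenchyme markers differed in level between pools, and their sum was set beside these values because Cyp26 and Aldh1a2 transcripts can also come from such cells. All 16 mesenchyme markers were measured and 15 lay above the filter, with Meox1 below it. None passed an adjusted p of 0.05 in the limma fit over genes, and 1 was higher and 1 lower at an unadjusted p under 0.05, against 5.14% of all genes. Of the 15, 12 had differences above 0 and 3 below. The summed normalized intensity of all 16 was 3859, 9432 and 5956 in Mest-KO pools 1, 2 and 3, against 6849, 5395 and 3420 in the controls, a 2.76-fold range in which the groups overlap. Single markers could range more widely, such as Prrx1, from 170.8 in control 3 to 987.1 in Mest-KO 2. Lum, a bright marker, did not follow the sum, with 1129, 1060 and 999.9 in Mest-KO, against 1731, 1409 and 1332 in control. Cyp26b1 ran in nearly the same order as this sum, lowest in control 3, then Mest-KO 1 and control 2. Over the 6 pools Pearson's r was 0.868 (exact permutation p = 0.0264, adjusted p = 0.264 over the 10 probe sets) and Spearman's rho was 0.829 (exact permutation p = 0.0583, adjusted p = 0.514), so the relation did not pass the adjustment. Without Mest-KO 2 and control 3, the pools farthest from the median, r was 0.835. Aldh1a3 set 2 had an r of 0.791 (exact permutation p = 0.0708, adjusted p = 0.354) and a rho of 0.771 (exact permutation p = 0.103, adjusted p = 0.514), with an r of 0.940 on the 4 pools left without those 2. Aldh1a3 sets 1 and 3 had a lower r, of 0.326 and 0.486, with 0.106 and 0.575 on those 4 pools. Aldh1a2 had an r of -0.43 (exact permutation p = 0.383, adjusted p = 0.639) and a rho of -0.26 (exact permutation p = 0.658, adjusted p = 1.0), with -0.09 on those 4 pools, and was lowest in Mest-KO 2, where the mesenchyme sum was highest. The other 7 probe sets had adjusted p of 0.639 or more for r. The permutations exchanged Mest-KO and control pools freely. The r on 4 pools were not tested, and so few points cannot decide whether a relation holds. This comparison was chosen after the values were seen, and the part of mesenchyme in the difference between groups was not tested. In pooled tissue fewer cells of a type and less RNA per cell cannot be told apart.

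**Figure D3:**
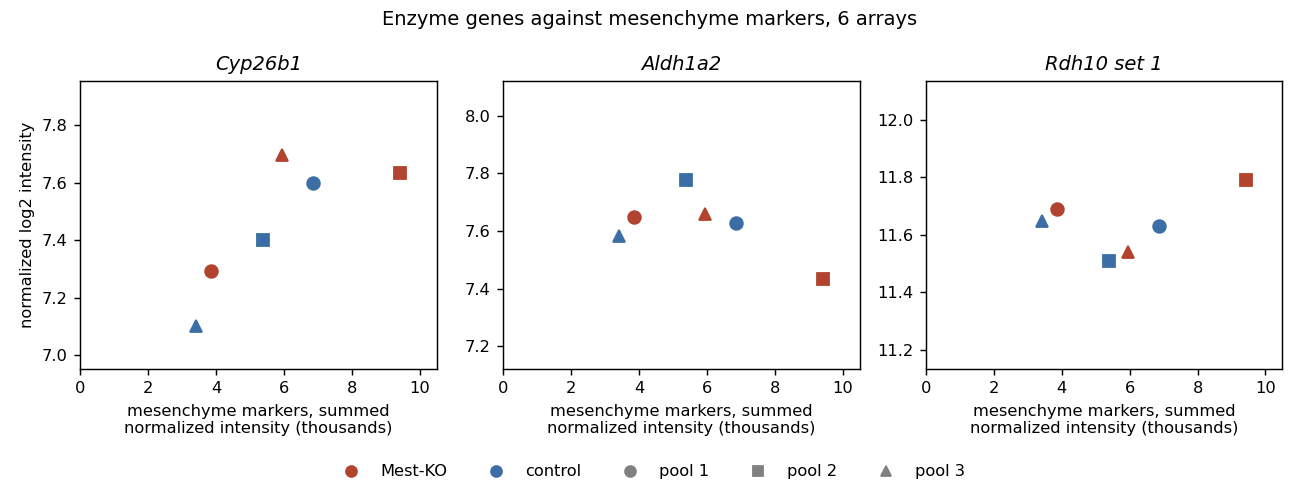
Normalized log2 intensity of Cyp26b1, Aldh1a2 and Rdh10 set 1 (vertical axes span 1 log2 unit each) against the summed normalized intensity of 16 mesenchyme markers, one point per array, Mest-KO in red and control in blue, with symbols for pool numbers. Cyp26b1 is lowest in the pools with the lowest sums, while Aldh1a2 is lowest in the pool with the highest sum. Rdh10 set 1 is highest there, whereas Rdh10 set 2, not drawn, is highest in the pool with the lowest sum.

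The rest of the retinoid pathway was described on lists of genes, with each gene read from its brightest probe set in a limma fit over 12462 genes. In that fit 0 genes passed an adjusted p of 0.05 (0%), 5.14% had an unadjusted p under 0.05, the groups did not overlap in 10.6%, the median difference was -0.0033 and 49.1% of the genes lay above 0. The 7 enzyme genes had 2 differences above 0 and 5 below in this fit, with a median of -0.08. None of the genes of any list passed, so the counts below give signs of differences and not changes. Some genes, such as Stra6 and Rarb, stand in 2 lists, and Cyp26a1 and Dhrs3 are also in the list of genes that respond to retinoic acid.

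Of genes for uptake, storage and binding of retinoids, 9 of 14 were tested, and 7 differences were below 0 and 2 above, with a median of -0.15. This median was -0.02 without control 1, -0.08 without a filter and also without Mest-KO 2, and -0.26 with median centring. Crabp1, which encodes a cytoplasmic protein that binds retinoic acid, had 2232, 1804 and 2037 in Mest-KO, against 2818, 2546 and 2370 in control. All Mest-KO pools were below all controls, and the difference was -0.35 (SE 0.118, unadjusted p = 0.0221, limma adjusted p = 0.909). Stra6, the membrane receptor that takes up retinol from its plasma carrier, had 499, 554 and 535 in Mest-KO, against 614, 581 and 584 in control, again without overlap (-0.18, SE 0.0820, limma adjusted p = 0.909). Ttr, which encodes the plasma carrier protein transthyretin and was singled out after its values were seen, had a difference of -2.68 (SE 1.45, limma adjusted p = 0.909). Its intensities were 37.3, 106 and 434 in Mest-KO, against 1042, 4536 and 111 in control. Control 3 lay among the Mest-KO pools, and without the pools of one sex the difference was -0.66.

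Other enzymes that act on retinol, retinal or carotenoids, 10 tested of 23, had 7 differences below 0 and 3 above, all between -0.28 and 0.08. The smallest p were those of Rdh11 at -0.15 (SE 0.117) and Rdh14 at -0.11 (SE 0.0898), both retinal reductase genes, and in both the groups overlapped. A second probe set of Rdh11 gave -0.34 (SE 0.126, unadjusted p = 0.0358 in the limma fit over probe sets, where 3.98% were under 0.05). The other probe sets of Rdh14 gave 0.03 (SE 0.199) and -0.10 (SE 0.222). The receptors and cofactors, 10 tested of 13, were split 5 and 5 with a median of 0.01, which was -0.03 without Mest-KO 2 and -0.15 with median centring. Rxrg, a retinoid X receptor gene, had 144, 155 and 199 in Mest-KO, against 315, 245 and 212 in control, without overlap. Rere, a coregulator gene, differed by 0.17 (SE 0.0975), and its groups overlapped in the deposited intensities but not after normalization. The difference of Rxrg was -0.67 (SE 0.165, unadjusted p = 0.00571, limma adjusted p = 0.777).

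Among 15 tested genes, of 24, that are known to respond to retinoic acid, 6 differences were above 0 and 9 below, with a median of -0.09. The median turned to 0.03 without Mest-KO 3 and to 0.02 with the probe sets of a gene averaged. Fgf3, a ligand gene of the hindbrain and ear, had the smallest p, with 302, 239.7 and 254 in Mest-KO, against 192, 162 and 162 in control. Every Mest-KO pool was above every control, and the difference was 0.56 (SE 0.122, unadjusted p = 0.00324, limma adjusted p = 0.651). Its other probe sets gave 0.29 (SE 0.361) and 0.63 (SE 0.230). Stra6, given above, had the next smallest p.

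Aldehyde dehydrogenases outside the enzyme set, 13 tested of 15, had 10 differences below 0 and 3 above, with a median of -0.08. Under the alternatives this median ran from -0.18, with median centring, to -0.03, with the deposited scaling only. Apart from Aldh1a7, the smallest p was that of Aldh18a1, of proline synthesis, at 0.23 (SE 0.114). Its other probe sets gave 0.03, 0.07, 0.16 and 0.20, and their average with the brightest gave 0.14. Other cytochrome P450 genes, 7 tested of 12, were split into 4 above 0 and 3 below, with a median of 0.16. That median was 0.01 without control 2, -0.0090 without the pools of one sex, and -0.02 both without a filter and with the probe sets of a gene averaged. Cyp27a1, a sterol hydroxylase gene, had 123, 87.7 and 144 in Mest-KO, against 81.6, 79.9 and 85.8 in control (0.38, SE 0.156, unadjusted p = 0.0503), values that overlapped after normalization. Cyp20a1 differed by 0.21 at its brightest probe set and by -0.52 and -0.18 at its others.

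**Figure D4:**
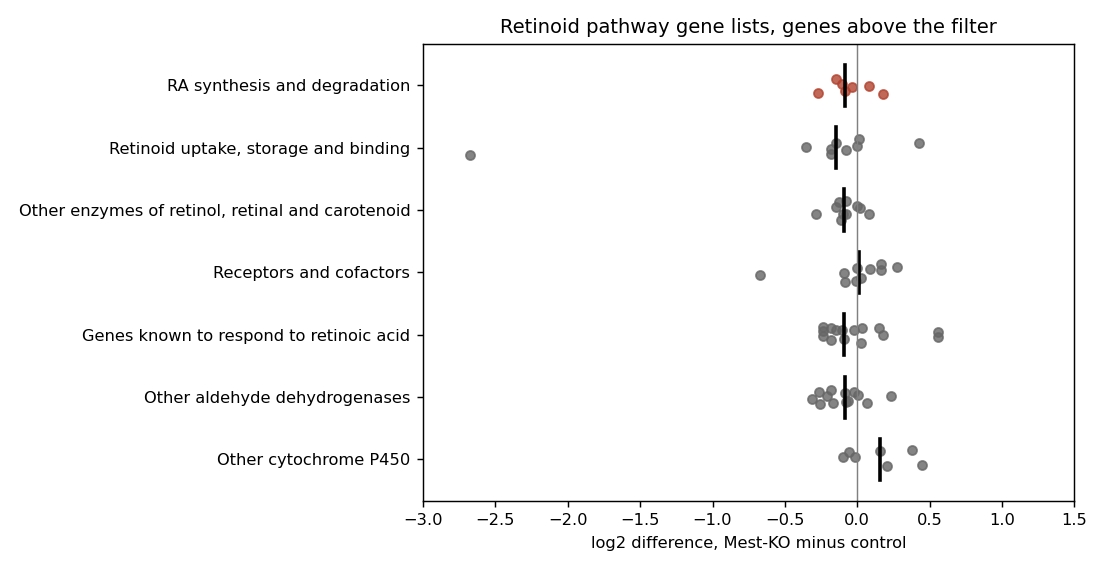
Log2 difference, Mest-KO minus control, of every gene above the filter in the enzyme set (red) and in 6 lists of related genes (grey), one point per gene read from its brightest probe set, with the median as a black bar. The enzyme genes lie between -0.27 and 0.17, within the range of the other lists, and the lone point near -2.7 is Ttr.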

How the data were processed

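RNA from 6 pools of otic vesicles was hybridised to Affymetrix mouse arrays. The submitters' processing notes name Affymetrix Expression Console 1.1. The authors deposited linear intensities, 1 per probe set and array, whose trimmed mean is 500 on every array when 2% of values are dropped at both ends. How probes were summarised and background removed was not given in the sources used here. The precision is limited by the number of arrays. Replicates are biological, per the labels.

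The 64 control probe sets were left out. Symbols came from the platform annotation (34945 probe sets with 1 symbol, 932 with several, 9160 unnamed here), updated through RefSeq gene identifiers for 34741. The log2 values, with intensities floored at 1, were quantile normalized. Mest-KO was set against control in R 4.3.3 by limma 3.58.1 (lmFit and eBayes, no trend and no covariates), two-sided, with a threshold of 0.05 after Benjamini-Hochberg adjustment. The fit was also run on simulated data with independent normal noise. The share of 2-fold changes that it found there is not given here. Correlations used exact permutation tests over 720 orders in Python 3.11.15. The sequences are RefSeq's, of build GRCm38.p6. The members, lists and tests were chosen with earlier results of these data known. Named genes are all members, Tbx1, and from each list those past the threshold and the 2 with the smallest p. Lists were described and not tested. All 6 arrays entered the reported fits. Alternatives were other filters, scalings and floors, a variance trend, array weights, a replicate block and pools left out.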

Additional observations from a re-analysis of the deposited data

How the results depend on the processing

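No enzyme probe set passed an adjusted p of 0.05 under any alternative tried, and the smallest adjusted p among 160 such values was 0.721. Of 168 such values for the named list genes 0 passed, with 0.152 as the smallest. The counts over all features did move, from 0 probe sets in the fit reported to 1 at a threshold of 0.10, 1 without a filter, 9 with the filter at the 60th percentile (fewer tested), 15 with median centring, 14 with a variance trend and 17 with a trend and robust fitting, and from 0 genes to 25 with median centring and 13 with the trend. Median centring moved the median of all genes to -0.14 and that of the enzyme probe sets to -0.18, and their split became 1 above 0 and 9 below, against 4 and 6. With it Rdh10 set 1 turned to -0.087, Aldh1a3 sets 1 and 2 to -0.10 and -0.058, and Rere to -0.023. With array weights Aldh1a3 set 3 turned to 0.030 and Rdh10 set 2 to 0.019, and with probe sets averaged per gene Cyp20a1 turned to -0.16. With single pools left out, the differences ran from -0.26 to 0.15, -0.16 to 0.43 and -0.23 to 0.069 for Aldh1a3 sets 1, 2 and 3, and from -0.085 to 0.097 for Rdh10 set 2. Except where said, the cause was not tested. Of 78 list medians recomputed, 23 moved by more than the spread between pools. The labels do not say whether the replicate numbers pair the pools. The deviations of same-numbered pools correlated at -0.041, -0.0065 and 0.033, and 2 of 6 arrays correlated best with their own number. With so few pools these values cannot decide whether the pools were paired. With the number as a replicate block, 0 probe sets, 0 enzyme probe sets and 0 genes passed, and Aldh1a1 had an adjusted p of 0.954.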

Other observations

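Markers of other cell types that lie close to sources and sinks of retinoic acid were also summed per array, on the normalized scale. Hindbrain markers, 7 measured of 8 and 4 above the filter, summed to 423, 1218 and 808 in Mest-KO pools 1, 2 and 3, against 985, 666 and 360 in the controls. Olig2, Nkx2-2 and Lhx5 were below the filter. Much of that range came from Zic1, with 160.5, 925 and 499.5 in Mest-KO, against 595, 335 and 97.4 in control. Zic1 put the pools in the same order as the mesenchyme sum, and whether its signal came from hindbrain was not tested. Lhx1 ran otherwise, with 150.4, 157 and 92.4 in Mest-KO, against 243, 205 and 174 in control. Surface and pharyngeal epithelium markers, 6 measured of 7 and 4 above the filter, summed to 227, 561 and 225 in Mest-KO, against 269, 259 and 208 in control. Mest-KO 2 was highest, and Krt5 and Krt14 were below the filter. Otic epithelium markers summed to 69771, 63619 and 67052 in Mest-KO, against 72021, 70903 and 72667 in control. Every Mest-KO pool was thus below every control, and groups do not overlap in 10.6% of single genes. Of the 14 otic markers 12 were lower and 2 higher in Mest-KO, 0 passed an adjusted p of 0.05 in the limma fit over genes, and 1 was lower at an unadjusted p under 0.05, against 5.14% of all genes at that p. Gata3, an otic transcription factor gene picked here once its values were known, had 1100, 917 and 1141 in Mest-KO, against 2161, 2068 and 2148 in control. Krt18, picked in the same way, had 10670, 8545 and 9524 in Mest-KO, against 10840, 11090 and 11260 in control. A large part of the gap between the otic sums came from Krt18 and Gata3. Neuroblast and ganglion markers had sums of 8150, 7732 and 7724 in Mest-KO, against 7382, 7433 and 7663 in control. The groups did not overlap, which holds for 10.6% of single genes. Of the 9 measured there, 4 were higher and 5 lower, 0 passed the adjusted p, and 2 were higher at an unadjusted p under 0.05. The direction of the sums came from Neurod1, also picked once its values were known. It had 1929, 1387 and 1502 in Mest-KO, against 978.6, 1125 and 1110 in control. Red blood cell markers differed little, with 24370, 27593 and 27681 in Mest-KO and 28009, 23882 and 26593 in control. The part of these cells in the values of the enzyme genes was not tested.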
